A study of Mus musculus with 30 samples.

Results

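The response of thymic endothelium to VEGF blockade was compared with that of the CD146-positive mesenchyme, the population that holds the pericytes and smooth muscle of the thymus. The quantity examined for each gene was the Trap change in endothelium minus the Trap change in CD146 mesenchyme, where a Trap change is the mean log2(FPKM + 1) of the Trap libraries minus that of the controls. FPKM is a read count scaled by transcript length and sequencing depth, so it compares genes per length. The comparison used 12 of the 30 libraries of the series, and 11194 of 18847 genes entered it because they reached 1 FPKM in at least 2 libraries of both populations. A further 993 genes reached that level in endothelium alone and 1294 in CD146 mesenchyme alone, so that a difference between their changes would have rested on one population.

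Endothelial Trap (n = 4), endothelial control (n = 2), CD146 Trap (n = 4) and CD146 control (n = 2) libraries were sequenced. All came from newborn B6.SJL mice of mixed sex that were injected on postnatal day 1 and whose thymi were taken on postnatal day 3, 2 days later. Trap mice received aflibercept, a soluble fusion of VEGF receptor domains that captures VEGF-A, and controls received an hFC antibody. Both populations were sorted from cells depleted of CD45, and were negative for CD3, CD4, CD8, CD45, Ter119 and EpCAM. Endothelium was CD31-positive, and the mesenchyme was CD31-negative and CD146-positive, a gate that is not restricted to one cell type. The labels do not say how many mice a library held or whether libraries came from separate litters, so p-values measure the spread between these libraries, which may be partly technical.

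VEGF-A acts on endothelial cells through VEGF receptor 2, encoded by Kdr, and drives their survival, division and the sprouting led by tip cells. Mural cells, which carry little of that receptor, wrap the endothelial tube, are recruited by endothelial PDGF-B through PDGF receptor beta, and share a basement membrane with the endothelium. They are a source of VEGF-A themselves.

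The labels matched the marker transcripts. Cdh5, the cadherin of endothelial junctions (GRCm38 chromosome 8, 104101625 to 104144511, plus strand), ranged over 530 to 619 FPKM in endothelial Trap and 621 to 645 FPKM in endothelial control libraries, and lay at or below 1.54 FPKM in every CD146 library. Rgs5, a pericyte regulator of G-protein signalling (chromosome 1, 169655501 to 169695813, plus strand), ranged over 2783 to 4382 FPKM in CD146 Trap and 3260 to 4262 FPKM in CD146 control libraries. In endothelium Rgs5 lay at 47.1 to 86.1 FPKM under Trap and 62.5 to 70.4 FPKM in controls. The FPKM of a library summed to between 184608 and 202688, and 10298 to 11694 genes reached 1 FPKM. Endothelial Trap replicate 2 stood apart: it had the fewest genes at 1 FPKM and the largest deviations from its group (SD 0.640 on the log2 scale). Its 4 cortical epithelial markers summed to 48.9 FPKM, against 0.46 to 2.14 FPKM in the endothelial controls, and its 4 medullary markers to 211 FPKM, against 17.8 to 85.9 FPKM. Values without it are given beside several of the results below.

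The mitosis and DNA replication genes had the lowest median Trap changes of the 29 gene lists, in endothelium and in CD146 mesenchyme. Their start regions are shown because factors at a few short elements are known to time such genes: the CHR element (TTTGAA or TTCGAA) and the CCAAT box (CCAAT) in mitosis genes, and E2F elements (cores TTCCCGC and TTGGCGC) in replication genes. The windows hold the 200 bases before the RefSeq start in GRCm38.p6, in the direction of transcription, and are those of the 3 members of each list with the smallest p for the difference, among windows that overlap no GENCODE exon. Capitals mark a match to any of the 3 kinds of element on either strand, so that ATTGG is a CCAAT box and TTCAAA a CHR on the opposite strand.
Kif11 (chr19:37376182-37376381, plus strand): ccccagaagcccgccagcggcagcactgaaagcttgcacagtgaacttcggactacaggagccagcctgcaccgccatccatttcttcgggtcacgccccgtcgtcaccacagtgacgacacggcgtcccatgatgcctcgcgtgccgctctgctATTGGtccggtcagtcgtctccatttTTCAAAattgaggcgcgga
Racgap1 (chr15:99651657-99651856, minus strand): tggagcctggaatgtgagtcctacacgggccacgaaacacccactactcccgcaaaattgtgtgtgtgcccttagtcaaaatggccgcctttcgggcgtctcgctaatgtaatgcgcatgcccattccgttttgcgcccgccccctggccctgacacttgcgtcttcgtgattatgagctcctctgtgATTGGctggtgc
Mki67 (chr7:135716380-135716579, minus strand): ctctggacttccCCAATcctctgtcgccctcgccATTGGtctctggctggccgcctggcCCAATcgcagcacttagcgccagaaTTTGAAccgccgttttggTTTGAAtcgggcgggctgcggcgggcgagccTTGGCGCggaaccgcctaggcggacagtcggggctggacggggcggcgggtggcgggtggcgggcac
Cdt1 (chr8:122567815-122568014, plus strand): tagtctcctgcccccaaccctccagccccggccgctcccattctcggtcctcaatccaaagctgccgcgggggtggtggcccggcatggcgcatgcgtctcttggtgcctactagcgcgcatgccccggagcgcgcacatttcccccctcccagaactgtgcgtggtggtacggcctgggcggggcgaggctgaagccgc
Rrm1 (chr7:102441495-102441694, plus strand): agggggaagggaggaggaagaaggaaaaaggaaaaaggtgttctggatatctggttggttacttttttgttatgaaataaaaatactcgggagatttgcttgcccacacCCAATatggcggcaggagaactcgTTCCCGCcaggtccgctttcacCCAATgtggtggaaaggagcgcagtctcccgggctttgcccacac
Mcm10 (chr2:5012792-5012991, minus strand): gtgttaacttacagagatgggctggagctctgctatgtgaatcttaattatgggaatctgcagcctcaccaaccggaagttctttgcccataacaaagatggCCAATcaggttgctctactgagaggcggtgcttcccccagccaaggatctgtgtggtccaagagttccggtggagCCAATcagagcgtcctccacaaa
Kif11, the GTPase-activating gene of cytokinesis Racgap1 and Mki67 are mitosis genes, and the licensing gene Cdt1, the ribonucleotide reductase gene Rrm1 and Mcm10, which helps to open origins, are replication genes. The CCAAT box occurred in all of these windows but that of Cdt1, which held none of the elements. A CHR occurred in the windows of Kif11 and Mki67, and an E2F core in those of Mki67 and Rrm1. Of the mitosis genes tested, 35 had a window, and 77.1% of these held a CCAAT box and 37.1% a CHR. Of the replication genes, 34 had a window, and 61.8% held a CCAAT box and 38.2% an E2F core. Over all 8379 tested genes with a window, 33.0% held a CCAAT box, 8.49% a CHR and 9.15% an E2F core. A match describes the letters only and is not a measured binding site.

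The difference between the populations had 0 genes higher and 0 lower in endothelium at an adjusted p under 0.05 (limma with Benjamini-Hochberg adjustment, 12 libraries). The smallest adjusted p was 0.456. At an unadjusted p under 0.05, 518 genes (4.63%) differed, of which 327 (2.92%) had the lower and 191 (1.71%) the higher change in endothelium. In the same fit, Trap against control gave 1 lower gene (0.00893%) and 0 higher genes in endothelium, with 834 genes (7.45%) lower and 399 (3.56%) higher at an unadjusted p under 0.05. CD146 mesenchyme gave 0 genes in either direction, with 195 (1.74%) lower and 108 (0.965%) higher at an unadjusted p under 0.05. With all 30 libraries of the series sharing 1 estimate of the spread, 242 genes passed in endothelium and 1 in CD146 mesenchyme, and still 0 in the difference. Libraries spread more in endothelium (median residual SD 0.414 on the log2 scale) than in CD146 mesenchyme (0.288).

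The intervals show what these libraries could resolve. The median distance from the difference to either end of its 95% interval was 1.04 on the log2 scale, and the interval lay within 1 of 0 for 2772 genes (24.8%). Above 20 FPKM in the population with the lower mean it did so for 1285 of 1668 genes (77%), with a median distance of 0.569. A p that misses the threshold does not show that the 2 changes were alike.

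**Figure D1:**
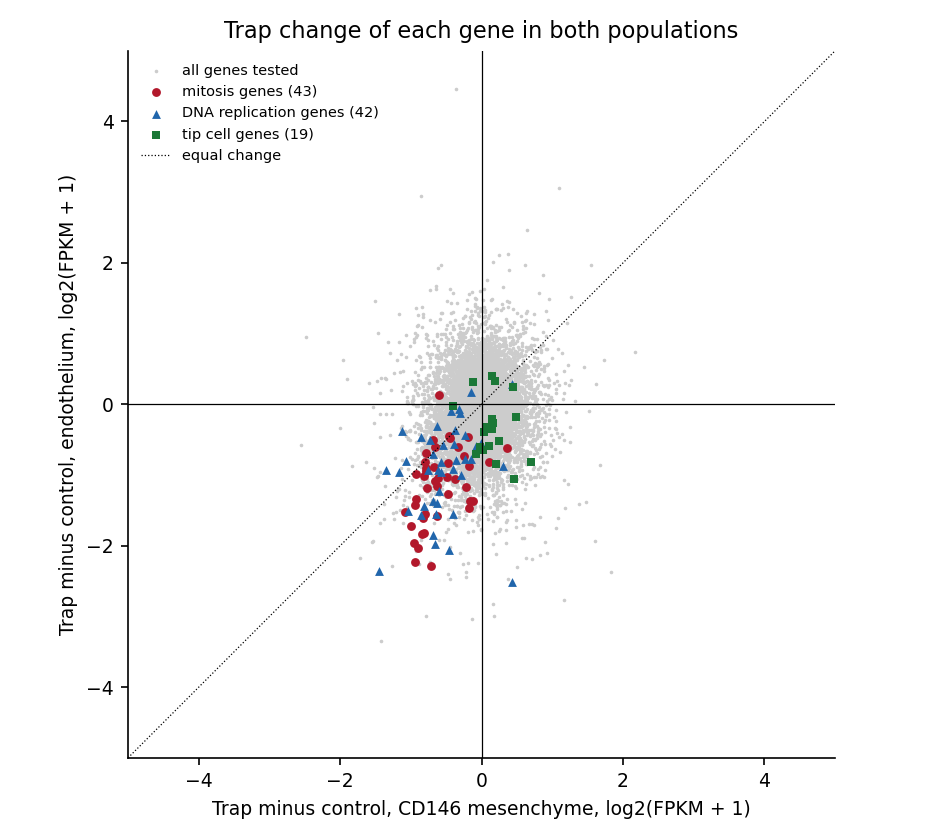
Trap minus control in CD146 mesenchyme (horizontal axis) and in endothelium (vertical axis), log2(FPKM + 1), for 11194 genes (grey), with the mitosis, DNA replication and tip cell genes in colour. Across genes the 2 changes had a Pearson r of 0.135, and most mitosis and replication genes lie at the lower left and below the dotted line of equal change.

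Across all genes the 2 changes were weakly related, with a Pearson r of 0.135 and a Spearman rank correlation of 0.132 over 11194 genes, which are not independent replicates. The median change was -0.06 in endothelium and -0.02 in CD146 mesenchyme, and the median difference was -0.04. In endothelium, all 4 Trap libraries lay below both controls for 1182 genes (10.6%), in CD146 mesenchyme for 897 (8.01%), and in both populations for 169 (1.51%). The reverse, all 4 above both controls, held for 731 genes (6.53%) in endothelium, 709 (6.33%) in CD146 mesenchyme and 75 (0.670%) in both.

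Among genes of chromosome segregation, nearly all had Trap means below control in both populations, and most were further below in endothelium. Of 43 tested mitosis genes (45 listed), 42 had a change below 0 in endothelium, against 56.1% of all genes, and 41 in CD146 mesenchyme, against 52.8%. The median change was -1.06 in endothelium and -0.66 in CD146 mesenchyme, and the median difference was -0.49, against -0.04 over all genes tested. The point difference was below 0 for 38 of the 43, against 53.7% of all genes. Both changes were below 0, with endothelium the lower, for 36 of the 43, against 21.2% of all genes. In endothelium all 4 Trap libraries lay below both controls for 32 mitosis genes, against 10.6% of all genes, in CD146 mesenchyme for 10, against 8.01%, and in both for 6, against 1.51%. None of the 43 passed in the difference, and 3 were lower at an unadjusted p under 0.05, against 2.92% of all genes. In bulk RNA, fewer dividing cells and less of these transcripts per cell cannot be told apart.

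Kif11, the kinesin that pushes spindle poles apart (chromosome 19, 37376403 to 37421859, plus strand), was the gene that passed in endothelium. It stood at 2.15, 1.06, 2.02 and 1.75 FPKM in endothelial Trap libraries, against 13.26 and 10.37 FPKM in endothelial controls. CD146 libraries held 12.51, 12.74, 10.69 and 8.69 FPKM under Trap, against 25.88 and 18.82 FPKM in controls. The groups did not overlap in either population, and every endothelial Trap library was below every other library. Kif11 fell by 2.23 on the log2 scale in endothelium (limma adjusted p = 0.0121). The change in CD146 mesenchyme was -0.94 (limma unadjusted p = 0.00353, adjusted p = 0.999), and the difference between the changes was -1.29 ± 0.38 (SE, 95% interval -2.10 to -0.48, limma adjusted p = 0.96). The endothelial call was lost without endothelial control replicate 1 (limma adjusted p = 0.294), with a separate weight for each population (0.0775) and with the replicate block by number (0.143). The 6 endothelial libraries fitted alone gave 0 called genes.

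Mki67, the proliferation antigen Ki-67, showed the limits of the comparison. It stood at 14.99, 13.85, 11.75 and 6.37 FPKM in endothelial Trap libraries, against 47.26 and 37.73 FPKM in controls. The CD146 libraries held 43.51, 55.26, 27.38 and 19.37 FPKM under Trap, against 79.35 and 45.7 FPKM in controls. The endothelial groups were apart, and in CD146 mesenchyme Trap replicate 2 lay between the controls. The interval of the difference ran from -2.19 to 0.19, with changes of -1.82 in endothelium and -0.82 in CD146 mesenchyme. Mki67, like Tpx2, Cenpe and Top2a in the next sentences, was chosen after its values were seen.

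Other spindle and kinetochore genes showed the same order. Tpx2, which activates the spindle kinase Aurora A, stood at 0.35 to 1.69 FPKM in endothelial Trap libraries, against 11.72 and 5.14 FPKM in controls, and at 4.70 to 16.34 FPKM in CD146 Trap, against 14.55 and 11.45 FPKM. Cenpe, a kinetochore motor, stood at 0.49 to 2.24 FPKM in endothelial Trap libraries, against 9.26 and 7.47 FPKM, and at 4.19 to 13.22 FPKM in CD146 Trap, against 20.75 and 13.02 FPKM. Top2a, which untangles DNA before segregation, had a difference of -0.72 ± 0.60 (SE), with a change of -1.71 in endothelium and -0.99 in CD146 mesenchyme. Cenpa, the histone of centromeres, was one of 2 mitosis genes with a change above 0 in CD146 mesenchyme. It stood at 2.73, 2.94, 2.06 and 4.27 FPKM in endothelial Trap libraries, against 5.74 and 4.4 FPKM, but at 14.81, 12.41, 19.98 and 18.39 FPKM in CD146 Trap libraries, against 9.97 and 15.12 FPKM (difference -0.99 ± 0.41, SE).

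The DNA replication genes followed a similar pattern with a smaller gap. Of 42 tested genes (44 listed), 40 had a change below 0 in endothelium, against 56.1% of all genes, and 39 in CD146 mesenchyme, against 52.8%. The median change was -0.84 in endothelium and -0.57 in CD146 mesenchyme. The median difference was -0.40, and the difference was below 0 for 31 genes, against 53.7% of all genes. All 4 Trap libraries lay below both controls for 22 of the 42 in endothelium, against 10.6%, for 15 in CD146 mesenchyme, against 8.01%, and for 10 in both, against 1.51%. None passed in the difference, and 5 were lower at an unadjusted p under 0.05, against 2.92%. The median difference was -0.17 without CD146 control replicate 2, -0.57 at a pseudocount of 0.1 FPKM and -0.11 at 5 FPKM. Averaged over the list, endothelial Trap libraries stood at 2.18, 1.91, 2.06 and 1.62 log2(FPKM + 1), against 2.91 and 2.84 in controls. CD146 Trap libraries stood at 2.33, 2.56, 2.26 and 2.21, against 3.06 and 2.68, so the groups were apart in both populations.

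Gins1, a subunit of the replicative helicase complex (chromosome 2, 150905400 to 150931280, plus strand), had the lowest p of any gene with a lower change in endothelium. It was at 0.18, 0, 0.05 and 0 FPKM in endothelial Trap libraries, against 4.26 and 5.88 FPKM in controls, and at 3.26, 2.76, 1.83 and 2.56 FPKM in CD146 Trap libraries, against 3.15 and 0.68 FPKM. The CD146 controls enclosed the CD146 Trap libraries except for Trap replicate 1. Gins1 entered the comparison in endothelium only through the controls. The difference was -2.94 ± 0.54 (SE, 95% interval -4.11 to -1.78, limma adjusted p = 0.46). Rrm2, the small subunit of ribonucleotide reductase, stood at 2.46, 2.65, 3.56 and 2.32 FPKM in endothelial Trap libraries, against 11.72 and 15.82 FPKM. CD146 libraries held 2.54, 7.13, 4.33 and 3.65 FPKM under Trap, against 12.63 and 3.92 FPKM in controls, which differed from each other by more than the Trap group did. Its difference was -1.31 ± 0.58 (SE), -2.05 without CD146 control replicate 1 and -0.58 without CD146 control replicate 2.

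The genes whose windows are printed above covered several levels. Cdt1 stood at 2.69, 0.26, 0.24 and 0.23 FPKM in endothelial Trap libraries, against 6.02 and 5.66 FPKM, and at 1.38 to 2.74 FPKM in CD146 Trap libraries, against 5.45 and 1.37 FPKM (difference -1.61 ± 0.71, SE). Rrm1 stood at 2.53, 1.89, 2.4 and 1.17 FPKM in endothelial Trap libraries, against 7.18 and 8.09 FPKM, and at 4.3 to 7.28 FPKM in CD146 Trap libraries, against 12.22 and 4.86 FPKM (difference -1.14 ± 0.52, SE). For both the endothelial groups were apart, and Cdt1 entered the comparison in endothelium only with the help of the controls. In CD146 mesenchyme control replicate 2 lay just below all Trap libraries for Cdt1 and among them for Rrm1. Racgap1 and Mcm10 were low in all libraries, at most 4.35 and 2.69 FPKM, with differences of -1.29 ± 0.67 and -0.71 ± 0.46 (SE).

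Not every replication gene had the lower change in endothelium. Mcm3, of the replicative helicase ring, stood at 8.66, 7.28, 6.21 and 3.9 FPKM in endothelial Trap libraries, against 13.46 and 12.24 FPKM, and at 2.59, 5.08, 3.22 and 3.42 FPKM in CD146 Trap libraries, against 10.72 and 10.12 FPKM. Its groups were apart in both populations, and the difference was 0.42 ± 0.43 (SE). Pcna, the sliding clamp, stood at 52.8 to 69.6 FPKM in endothelial Trap libraries, against 107 and 127 FPKM, and at 55.7 to 73.1 FPKM in CD146 Trap libraries, against 74.3 and 93.8 FPKM. For Pcna the groups were apart in both populations, and the interval of the difference ran from -1.003 to -0.0036. Mcm3 and Pcna were chosen after their values were seen.

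**Figure D2:**
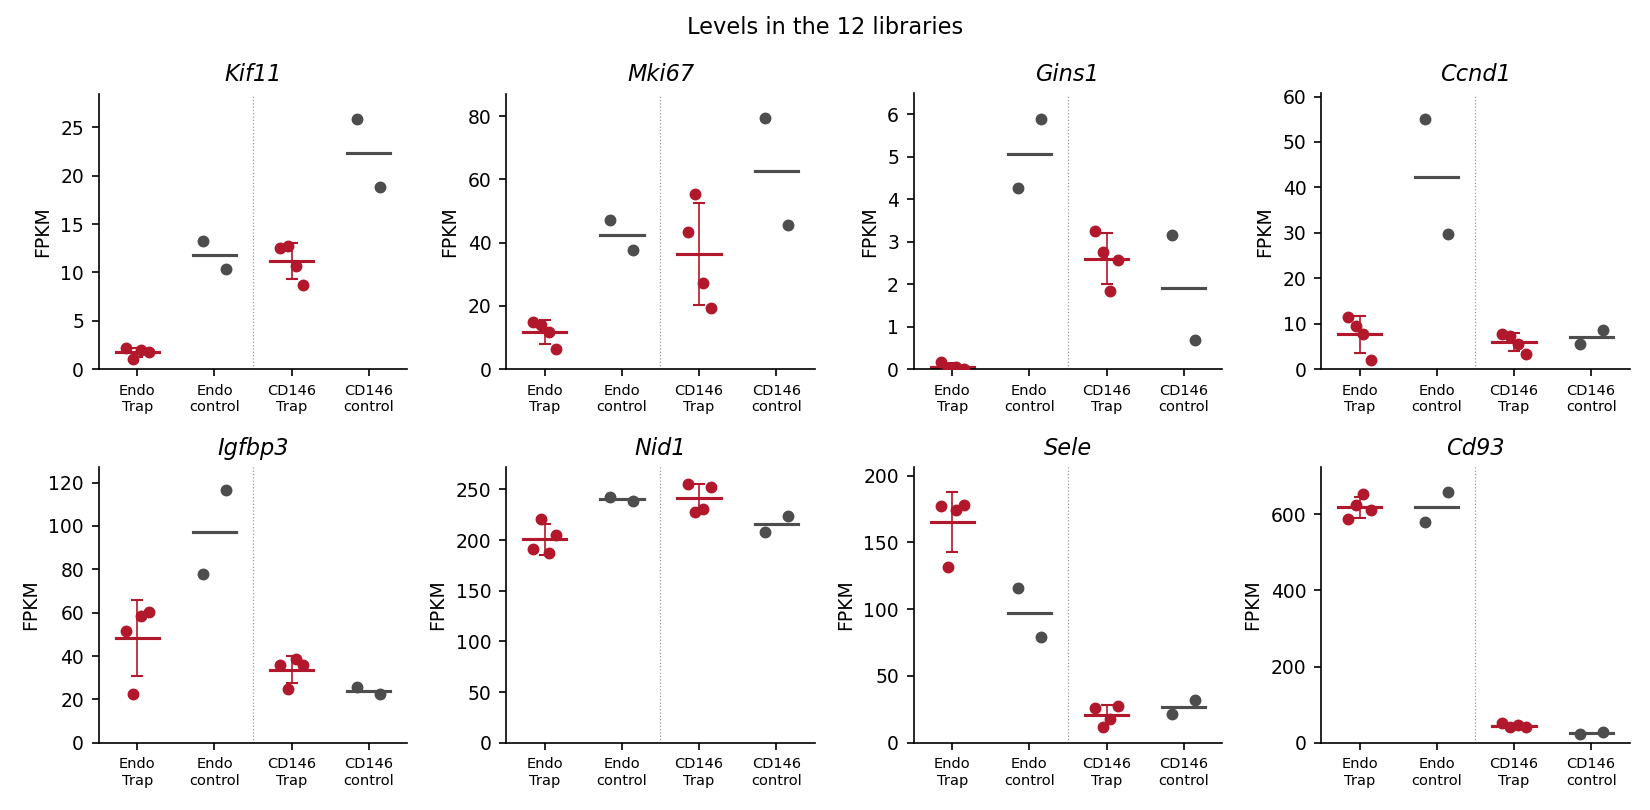
FPKM in each of the 12 libraries (points) for 8 genes, with the group mean (line) and SD (bar, Trap groups of 4). Endothelial Trap libraries lie below both endothelial controls for Kif11, Mki67, Gins1, Ccnd1, Igfbp3 and Nid1 and above both for Sele, while Cd93 differs in CD146 mesenchyme.

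Averaged over the mitosis list, endothelial Trap libraries stood at 1.60, 1.44, 1.45 and 1.28 log2(FPKM + 1), against 2.67 and 2.51 in endothelial controls. CD146 Trap libraries stood at 2.59, 2.98, 2.30 and 1.96, against 3.31 and 2.80 in CD146 controls. The endothelial groups were apart, while CD146 Trap replicate 2 lay above CD146 control replicate 2. The median mitosis difference was -0.85 without CD146 control replicate 1 and -0.23 without CD146 control replicate 2, so its size depended on which CD146 control was used. It also depended on the scale, with -0.93 at a pseudocount of 0.1 FPKM and -0.18 at 5 FPKM, and was below 0 under each alternative tried. Without endothelial Trap replicate 2 it was -0.46.

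Thymocytes divide rapidly. In endothelium, 4 thymocyte markers summed lower in all 4 Trap libraries than in both controls, while a wider list did not separate the groups. The 4 thymocyte markers (Cd3e, Lck, Rag1 and Ptcra) summed to 0.56 to 5.84 FPKM in endothelial Trap libraries, against 6.34 to 8.09 FPKM in endothelial controls, and to 0.76 to 3.51 FPKM in CD146 Trap libraries, against 0.51 to 2.83 FPKM in CD146 controls. Lck made up most of the sum in the endothelial controls, at 6.4 and 5.37 FPKM, while Cd3e, a T-cell receptor component, lay at 0.03 and 0 FPKM there. Ptprc, the gene of CD45, lay at 0.04 to 0.33 FPKM in endothelial Trap libraries and at 0.01 and 0 FPKM in endothelial controls. The 7 tested genes of the wider thymocyte and leukocyte list had a median endothelial change of 0.17, with 4 above 0, and their mean in the Trap libraries (2.08, 2.27, 2.26 and 2.48 log2(FPKM + 1)) lay between those of the controls (1.91 and 2.51). The part of thymocytes in the cell cycle values was not tested.

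**Figure D3:**
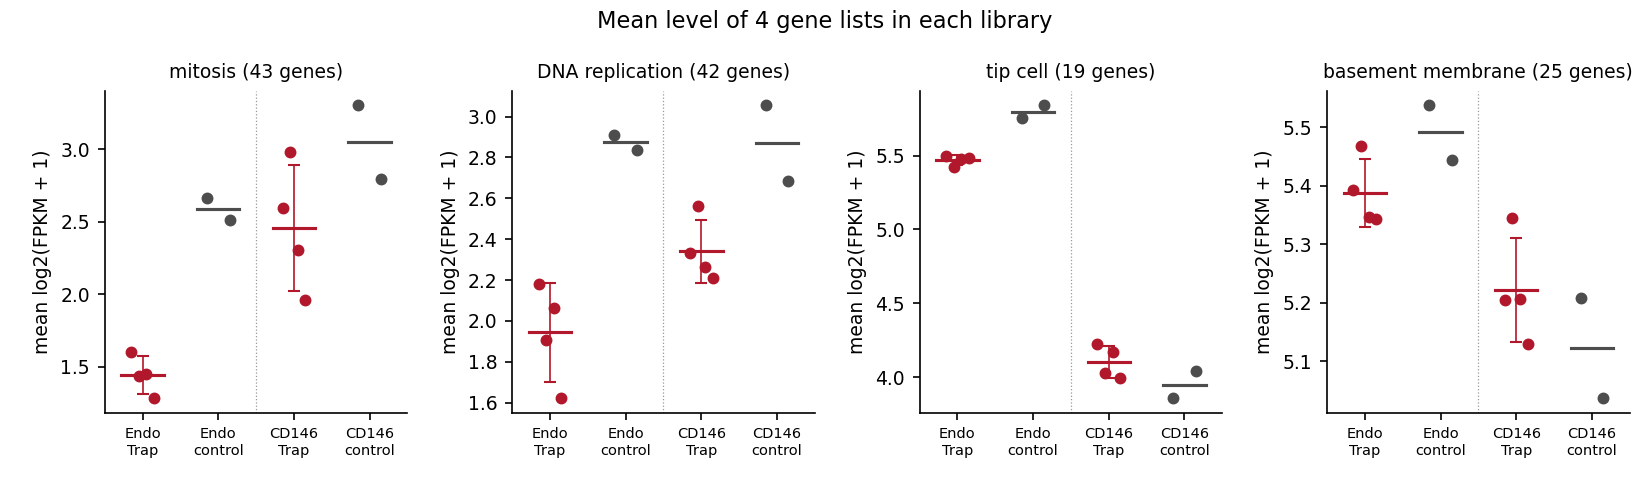
Mean log2(FPKM + 1) of 4 gene lists in each library (points), with group means (lines) and SDs (bars, Trap groups of 4); the vertical axes do not start at 0. For mitosis and tip cell genes the endothelial Trap libraries lie below both endothelial controls, while CD146 Trap and control libraries overlap. For DNA replication genes the Trap libraries lie below both controls in each population.

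Cell cycle entry genes showed no common direction. Of 17 tested G1 cyclins and inhibitors (19 listed), 6 had a difference below 0 and 11 above it, against 46.3% of all genes above 0. The median difference was 0.19. Ccnd1, cyclin D1 (chromosome 7, 144929931 to 144939925, minus strand), stood at 11.41, 9.48, 7.84 and 1.99 FPKM in endothelial Trap libraries, against 55.12 and 29.69 FPKM in controls. The CD146 libraries held 7.75, 7.42, 5.57 and 3.34 FPKM under Trap, against 5.54 and 8.58 FPKM in controls, and the groups overlapped. The difference was -2.21 ± 0.70 (SE, 95% interval -3.72 to -0.70, limma adjusted p = 0.99). Cdk6, a kinase partner of D cyclins, went the other way in endothelium: 13.34, 23.24, 11.37 and 11.74 FPKM in Trap libraries, against 7.95 and 6.85 FPKM. In CD146 mesenchyme Cdk6 was at 40.9 to 55.4 FPKM under Trap, against 43.7 and 47.2 FPKM, and the difference was 0.82 ± 0.34 (SE), and 0.60 without endothelial Trap replicate 2.

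Of the VEGF ligands and receptors, 7 of 10 could be compared, and none had an interval that excluded 0. Vegfa stood at 8.99, 10.93, 10.55 and 13.47 FPKM in endothelial Trap libraries, against 10.63 and 11.15 FPKM, and at 19.49, 21.62, 23.53 and 21.98 FPKM in CD146 Trap libraries, against 20.42 and 22.46 FPKM. Trap and control overlapped in both populations, and the difference was -0.01 ± 0.26 (SE, 95% interval -0.57 to 0.54). Vegfa averaged 10.98 ± 1.86 FPKM in endothelial Trap and 21.7 ± 1.66 FPKM in CD146 Trap libraries (SD, n = 4 each). Kdr was below 0.6 FPKM in all CD146 libraries and was not compared, but in endothelium it stood at 101.65, 102.47, 107.9 and 88.58 FPKM under Trap, against 150.69 and 131.26 FPKM in controls. Flt4, VEGF receptor 3, was at most 0.69 FPKM in CD146 mesenchyme and stood at 14.8 to 29.2 FPKM in endothelial Trap, against 20.6 and 22.8 FPKM in endothelial control libraries. Figf, the gene of VEGF-D, reached 1 FPKM in 1 endothelial library and was not compared.

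Flt1, the decoy-like VEGF receptor 1, was at 107.89 to 135.68 FPKM in endothelial Trap libraries, against 131.14 and 139.78 FPKM, and at 4.03 to 5.75 FPKM in CD146 Trap, against 4.29 and 4.46 FPKM (difference -0.31, 95% interval -0.80 to 0.17). The co-receptors Nrp1 and Nrp2 had differences of -0.31 ± 0.21 and -0.18 ± 0.35 (SE). Pgf, placental growth factor, stood at 2.88, 7.67, 4.26 and 5.82 FPKM in endothelial Trap libraries, against 2.52 and 1.17 FPKM, and at 8.34, 6.48, 7.19 and 12.13 FPKM in CD146 Trap libraries, against 6.42 and 11.29 FPKM. Its endothelial groups were apart and its CD146 groups overlapped (difference 1.13, 95% interval -0.01 to 2.27, and 0.94 without endothelial Trap replicate 2). The lymphatic ligand gene Vegfc had a difference of -1.22 ± 0.65 (SE), which was -1.89 without CD146 control replicate 1 and -0.56 without CD146 control replicate 2. Vegfb had one of 0.49 ± 0.85 (SE), and both had groups that overlapped in each population.

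Tip cell genes, which mark the leading cells of sprouts, mostly had Trap means below control in endothelium and above control in CD146 mesenchyme. Of 19 tested (23 listed), 15 had a change below 0 in endothelium and 4 in CD146 mesenchyme, with medians of -0.35 and 0.15. The median difference was -0.50, with 15 genes below 0, and -0.48 without endothelial Trap replicate 2. All 4 Trap libraries lay below both controls for 11 of the 19 in endothelium, against 10.6% of all genes, and for 1 in CD146 mesenchyme, against 8.01%. None passed in the difference, and 7 had an unadjusted p under 0.05, against 2.92% of all genes.

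Igfbp3, which binds insulin-like growth factors (chromosome 11, 7206086 to 7213923, minus strand), stood at 51.74, 22.66, 58.4 and 60.32 FPKM in endothelial Trap libraries, against 77.9 and 116.42 FPKM. CD146 libraries held 35.77, 24.75, 38.61 and 35.97 FPKM under Trap, against 25.59 and 22.38 FPKM. The endothelial groups were apart, and all CD146 Trap libraries but replicate 2 lay above both controls. The difference was -1.52 ± 0.47 (SE, limma adjusted p = 0.99), and -1.20 without endothelial Trap replicate 2. Dll4, the Notch ligand of tip and arterial cells, stood at 10.13, 12.52, 22.38 and 18.53 FPKM in endothelial Trap libraries, against 25.27 and 30.92 FPKM, and at or below 1.35 FPKM in all CD146 libraries. The tip cell markers Esm1, Kcne3 and Apln were too low in CD146 mesenchyme to compare. They were chosen after their values were seen, and endothelial levels are given for Esm1 and Apln only. In endothelium Esm1 stood at 2.71, 38.53, 0.67 and 2.3 FPKM under Trap, against 43.46 and 33.65 FPKM, so that Trap replicate 2 alone was at the control level. Apln, the apelin ligand, stood at 5.48 to 16.56 FPKM in endothelial Trap libraries, against 21.64 and 37.16 FPKM.

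Of the tip cell genes, 5 (Col4a1, Col4a2, Nid1, Nid2 and Lama4) are also basement membrane genes, so the 2 lists are not separate measurements. Of 25 tested basement membrane genes (31 listed), 17 had a difference below 0, against 53.7% of all genes, with a median of -0.31, and 4 were lower at an unadjusted p under 0.05, against 2.92%. Changes were below 0 for 16 in endothelium, a share near the 56.1% of all genes, and for 7 in CD146 mesenchyme, against 52.8%. All 4 Trap libraries lay below both controls for 11 genes in endothelium, against 10.6% of all genes, and for 0 in CD146 mesenchyme, against 8.01%. In CD146 mesenchyme 4 had all Trap libraries above both controls, against 6.33%.

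Nid1, nidogen 1, which links laminin to collagen IV (chromosome 13, 13437551 to 13512269, plus strand), stood at 190.68, 220.32, 187.15 and 205.02 FPKM in endothelial Trap libraries, against 242 and 238.55 FPKM. In CD146 mesenchyme it stood at 255.21, 227.3, 230.91 and 251.94 FPKM under Trap, against 208.14 and 223.82 FPKM. The groups were apart in both populations and in opposite directions, and the difference was -0.42 ± 0.16 (SE, 95% interval -0.77 to -0.07). Col4a2, a collagen IV chain, stood at 345.82, 314.88, 400.02 and 372.08 FPKM in endothelial Trap libraries, against 462.2 and 449.22 FPKM, and at 225 to 305 FPKM in CD146 Trap libraries, against 220 and 264 FPKM. Its partner Col4a1, which was chosen after its values were seen and starts head to head with Col4a2, stood at 368 ± 22.4 FPKM in endothelial Trap (SD, n = 4) and 460 ± 42.8 FPKM in endothelial control libraries (SD, n = 2). In CD146 mesenchyme Col4a1 was at 308 ± 17.1 FPKM under Trap and 291 ± 21.3 FPKM in controls. The differences were -0.50 ± 0.20 for Col4a2 and -0.40 ± 0.17 for Col4a1 (SE), and no adjusted p of the list was below 0.99.

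**Figure D4:**
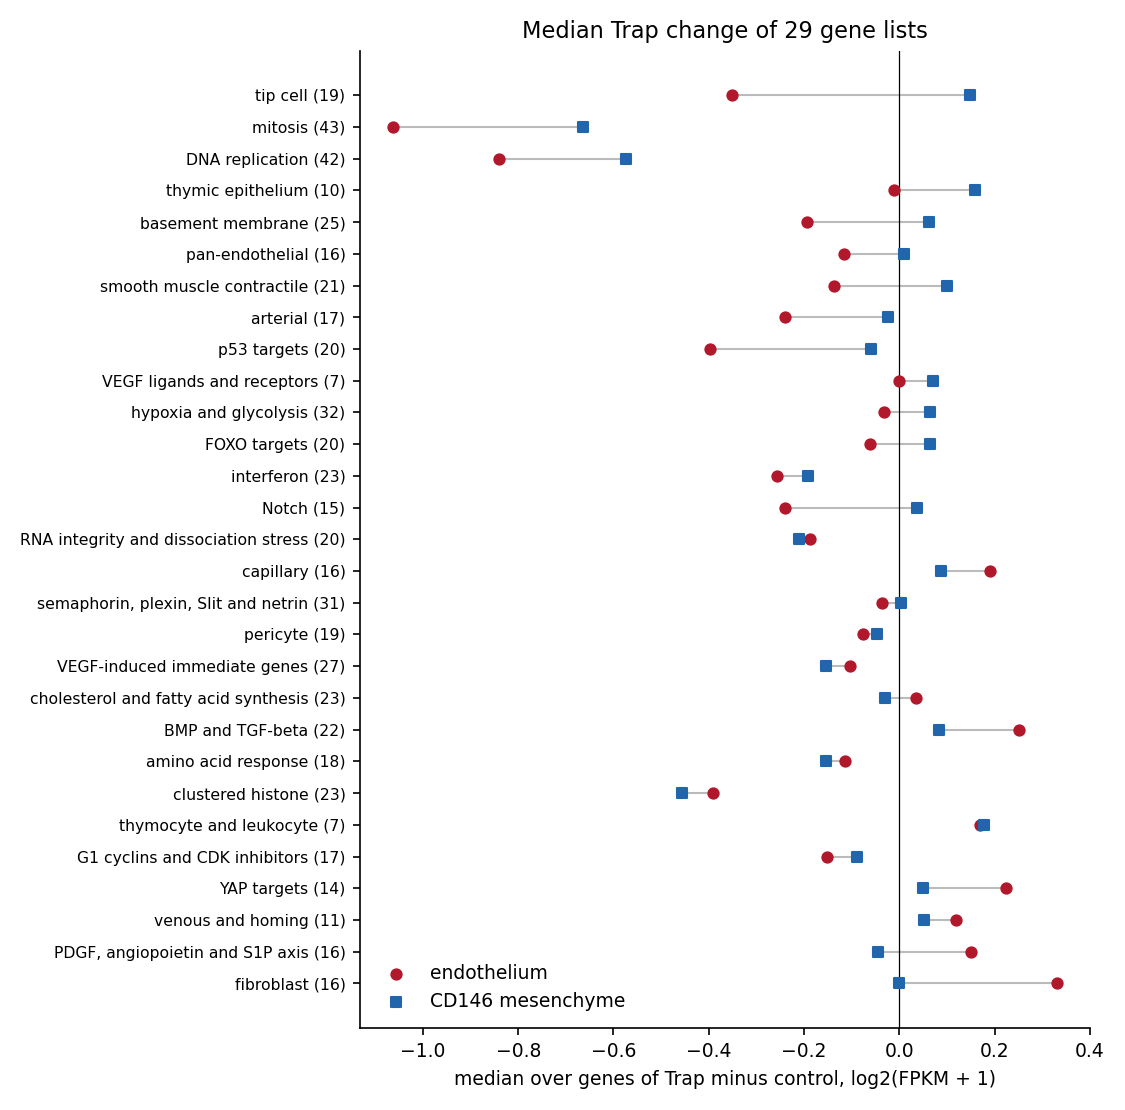
Median Trap change (log2(FPKM + 1)) of 29 gene lists in endothelium (circles) and CD146 mesenchyme (squares), with the number of tested genes in brackets, ordered by the median difference. Mitosis and DNA replication lie lowest in both populations, and tip cell genes lie at -0.35 in endothelium and 0.15 in CD146 mesenchyme.

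Genes of vessel identity had mixed directions. The 11 tested venous and homing genes had a median difference of 0.25, with 7 above 0. Sele, the adhesion receptor E-selectin (chromosome 1, 164048234 to 164057677, plus strand), stood at 177.45, 131.81, 173.98 and 178.15 FPKM in endothelial Trap libraries, against 115.64 and 78.79 FPKM. In CD146 mesenchyme it was at 26.05, 12.14, 18.08 and 27.75 FPKM under Trap, against 21.69 and 31.97 FPKM, and the groups overlapped (difference 1.16 ± 0.41, SE, and 1.26 without endothelial Trap replicate 2). Aplnr, the apelin receptor (chromosome 2, 85136225 to 85139923, plus strand), went the other way in endothelium, at 196.73, 181.01, 177.5 and 204.73 FPKM in Trap libraries, against 251.85 and 280.56 FPKM. In CD146 mesenchyme Aplnr was low, at 1.03, 0.41, 1.15 and 0.61 FPKM, against 0.28 and 0.17 FPKM, and 0.54 of its difference of -1.02 on the log2 scale came from there. Aplnr entered the comparison in CD146 mesenchyme only through Trap libraries. Enpp2, autotaxin, which was chosen after its values were seen, stood at 85.6 to 111 FPKM in endothelial Trap libraries, against 45.8 and 52.0 FPKM, and at 77.76 to 118.5 FPKM in CD146 Trap libraries, against 72.3 and 80.9 FPKM (difference 0.60 ± 0.24, SE).

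Among arterial genes, the chemokine gene Cxcl12 stood at 99.23, 111.3, 85.35 and 76.87 FPKM in endothelial Trap libraries, against 63.38 and 75.18 FPKM, and at 8.97 to 10.40 FPKM in CD146 Trap libraries, against 9.61 and 13.05 FPKM (difference 0.59 ± 0.25, SE). The lipoxygenase gene Alox12 had a difference of -1.76 ± 0.85 (SE). The list of 17 arterial genes had a median difference of -0.22, with 11 below 0. Of 16 capillary genes 7 were below 0, and the lowest p was that of Btnl9, a butyrophilin-like gene, at 34.8 to 52.5 FPKM in endothelial Trap libraries, against 83.0 and 112 FPKM, and at most 1.36 FPKM in CD146 libraries. Rgcc, a regulator of the cell cycle found in capillaries, had a difference of -0.80 ± 0.37 (SE). For 15 Notch genes the median difference was -0.09, and Heyl, a Notch target of mural cells at 53.2 to 85.9 FPKM in CD146 libraries, was at 2.39 FPKM or below in endothelium.

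For Cd93 and Clec14a, the pan-endothelial genes of lowest p, the difference came from CD146 mesenchyme. Cd93, a transmembrane lectin of endothelium (chromosome 2, 148436640 to 148443563, minus strand), averaged 619 FPKM in both endothelial groups, with a change of 0.00 on the log2 scale. In CD146 mesenchyme it stood at 50.94, 41.97, 46.26 and 40.64 FPKM under Trap, against 24.29 and 28.89 FPKM, a change of 0.74 (limma unadjusted p = 6.73e-05, adjusted p = 0.517). The CD146 groups were apart, and the difference was -0.73 ± 0.18 (SE, limma adjusted p = 0.95). Clec14a, another endothelial lectin, stood at 2.58, 0.91, 2.47 and 0.95 FPKM in CD146 Trap libraries, against 0.18 and 0.53 FPKM, and at 46.7 to 55.2 FPKM in endothelial Trap libraries, against 56.3 and 56.5 FPKM. Clec14a entered the comparison in CD146 mesenchyme only through Trap libraries. In CD146 mesenchyme the mean of the 16 tested pan-endothelial genes was 2.14, 2.17, 2.15 and 2.09 log2(FPKM + 1) under Trap, all above the 2.06 and 2.00 of the controls. There 8 of the 16 had a change above 0, against 47.2% of all genes. At an unadjusted p under 0.05 in the main fit, 3 were higher, against 0.965% of all genes, and 1 was lower, against 1.74%. The 6 endothelial markers summed to 8.31 to 11.7 FPKM under Trap, against 11.24 and 12.03 FPKM in controls. The part of endothelial RNA in the CD146 values was not tested. Over 16 pan-endothelial genes the median difference was -0.26, and Pecam1, the gene of the sorting antigen CD31, had a difference of 0.36 ± 0.23 (SE).

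The axis between endothelium and mural cells was compared from ligand to receptor. Pdgfb stood at 62.67, 55.45, 51.76 and 69.37 FPKM in endothelial Trap libraries, against 51.37 and 48.96 FPKM (difference -0.20 ± 0.43, SE). Its receptor gene Pdgfrb stood at 169.49, 142.01, 180.39 and 196.0 FPKM in CD146 Trap libraries, against 130.01 and 175.96 FPKM, which overlapped. Pdgfrb was also measured at 2.93, 2.54, 3.32 and 2.04 FPKM in endothelial Trap libraries, against 5.0 and 4.81 FPKM, and its difference of -0.86 ± 0.27 (SE) came mainly from these low endothelial levels. Angpt2, a context-dependent ligand of Tie2, stood at 71.1 to 95.9 FPKM in endothelial Trap libraries, against 59.7 and 63.1 FPKM, and had a difference of 0.24 (95% interval -0.36 to 0.84). Plpp3, which degrades extracellular lipid phosphates, stood at 55.8, 50.53, 54.38 and 38.66 FPKM in endothelial Trap libraries, against 73.85 and 79.88 FPKM, and at 21.6 to 26.7 FPKM in CD146 Trap libraries, against 17.99 and 22.38 FPKM (difference -0.87 ± 0.25, SE, limma adjusted p = 0.96). Of the 16 genes of this axis 13 had a difference above 0, with a median of 0.28. Pdgfb and Angpt2 were chosen after their values were seen.

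Mural identity genes had median changes near 0 in CD146 mesenchyme. The 19 tested pericyte genes had a median change of -0.05 there. Of their differences 1 had an unadjusted p under 0.05, a share near the 4.63% of all genes. Rgs5 had a difference of 0.08 ± 0.34 (SE, 95% interval -0.64 to 0.81), and Mcam, the gene of CD146, one of -0.35 ± 0.26. For 21 smooth muscle genes the median change in CD146 mesenchyme was 0.10, with 17 above 0, and the median difference was -0.25, with 14 below 0. The 2 of lowest p had a difference above 0. These, Vcl and Tpm1, of the contractile and adhesion machinery, had all endothelial Trap libraries above both controls. Vcl stood at 96.7 to 122 FPKM in endothelial Trap libraries, against 62.6 and 86.1 FPKM, and at 89.4 to 101 FPKM in CD146 Trap, against 92.0 and 101 FPKM (difference 0.56 ± 0.21, SE). Tpm1 stood at 53.4 to 77.7 FPKM in endothelial Trap, against 46.8 and 48.3 FPKM, and its difference was 0.47 ± 0.21 (SE).

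Fibroblast genes had the highest median difference, 0.31, with 13 of 16 above 0, but this median was -0.09 without CD146 control replicate 1 and 0.09 without endothelial Trap replicate 2. Fbn1, fibrillin 1, stood at 89.18, 107.35, 85.02 and 95.52 FPKM in endothelial Trap libraries, against 66.73 and 49.3 FPKM, and at 121 to 193 FPKM in CD146 Trap libraries, against 136 and 164 FPKM (difference 0.73 ± 0.26, SE). Pdgfra, which marks fibroblasts, stood at 0.56 to 1.23 FPKM in endothelial Trap libraries, against 0 and 0.12 FPKM. Pdgfra entered the comparison in endothelium only through Trap libraries. The 4 fibroblast markers summed to 2.52 to 5.31 FPKM in endothelial Trap libraries, against 0.27 to 2.43 FPKM in endothelial controls, and their part in the result was not tested.

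The remaining lists are given by their counts. None of their members passed in the difference. Clustered histone genes (23 of 59 tested, many with near-identical copies whose reads cannot be told apart with certainty) had a median difference of 0.16 and changes of -0.39 in endothelium and -0.46 in CD146 mesenchyme. The 27 VEGF-induced immediate genes had a median difference of 0.09, and Klf2, a flow-regulated transcription factor that is also a FOXO target, stood at 16.65 to 34.13 FPKM in endothelial Trap libraries, against 74.31 and 47.11 FPKM, and at 17.9 to 31.55 FPKM in CD146 Trap libraries, against 35.16 and 22.32 FPKM. Interferon genes were below 0 for 20 of 23 in endothelium and 18 of 23 in CD146 mesenchyme, with a median difference of -0.10. Among them Ifit2, an antiviral effector, stood at 5.4 to 11.26 FPKM in endothelial Trap libraries, against 26.95 and 13.51 FPKM, and at 4.53 to 7.52 FPKM in CD146 Trap libraries, against 6.66 and 5.37 FPKM (difference -1.14 ± 0.45, SE).

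Stress and metabolic lists had medians between those of the cell cycle and fibroblast genes. The 20 p53 targets had a median difference of -0.21, with changes below 0 for 17 in endothelium and 11 in CD146 mesenchyme. The 32 hypoxia and glycolysis genes had a median difference of -0.17, and Tpi1, a glycolytic isomerase, stood at 3.55 to 8.75 FPKM in endothelial Trap libraries, against 4.96 and 2.75 FPKM, and at 8.78 to 11.24 FPKM in CD146 Trap libraries, against 17.47 and 17.15 FPKM. The 20 dissociation and RNA integrity genes had a median difference of 0.01, with changes of -0.19 in endothelium and -0.21 in CD146 mesenchyme. Medians were 0.13 for 23 cholesterol and fatty acid genes, 0.14 for 18 amino acid response genes, -0.13 for 20 FOXO targets and 0.06 for 31 semaphorin, plexin, Slit and netrin genes.

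Signalling lists included the 22 BMP and TGF-beta genes, with a median difference of 0.13. Bmp6, a ligand of that family made by endothelium, stood at 13.33 to 28.37 FPKM in endothelial Trap libraries, against 17.69 and 13.27 FPKM, and at 5.84, 3.98, 7.03 and 4.91 FPKM in CD146 Trap libraries, against 2.17 and 1.79 FPKM. The CD146 groups were apart, and the difference was -0.82 ± 0.41 (SE). Of 14 YAP pathway genes 10 had a difference above 0, with a median of 0.22, and Wwtr1, the YAP partner TAZ, stood at 109.76 to 130.82 FPKM in endothelial Trap libraries, against 89.53 and 97.16 FPKM. The 10 thymic epithelial genes had a median difference of -0.32, and the 7 thymocyte and leukocyte genes one of 0.19.

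Of the 12 genes of lowest p with the higher change in endothelium, Ndufa5 and Olr1 came first and had opposite changes in the 2 populations. Ndufa5, a subunit of respiratory complex I (chromosome 6, 24518666 to 24528013, minus strand), stood at 9.3, 5.86, 4.21 and 6.13 FPKM in endothelial Trap libraries, against 1.79 and 2.14 FPKM. In CD146 mesenchyme it stood at 3.43, 5.39, 4.21 and 3.3 FPKM under Trap, against 11.6 and 9.0 FPKM. The groups were apart in both populations and in opposite directions (difference 2.44 ± 0.44, SE, limma adjusted p = 0.46). Olr1, a receptor for oxidised lipoprotein (chromosome 6, 129485244 to 129507165, minus strand), stood at 120.32, 107.78, 125.23 and 160.39 FPKM in endothelial Trap libraries, against 85.5 and 54.59 FPKM, and at 1.54, 1.95, 1.88 and 3.85 FPKM in CD146 Trap libraries, against 6.13 and 4.36 FPKM. Its groups too were apart in opposite directions (difference 1.84 ± 0.39, SE, limma adjusted p = 0.57). Cd55, a complement inhibitor, Ppih, a spliceosomal cyclophilin, and the linker histone gene Hist1h1c had differences of 1.90 ± 0.52, 1.85 ± 0.52 and 2.30 ± 0.67 (SE) with the same pattern of opposite changes, and that of Ppih was 1.71 without endothelial Trap replicate 2.

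Several other genes of the higher 12 were set mainly by one population. Muc1, a mucin, stood at 8.88, 4.89, 4.01 and 3.27 FPKM in endothelial Trap libraries, against 0.51 and 0.25 FPKM, while CD146 Trap libraries stood at 5.39 to 11.6 FPKM, against 5.91 and 7.53 FPKM (difference 1.86 ± 0.52, SE). Muc1 entered the comparison in endothelium only through Trap libraries. Sdf2, a chaperone component of the endoplasmic reticulum, differed in CD146 mesenchyme, at 25.25, 21.53, 22.84 and 19.78 FPKM under Trap, against 40.16 and 39.89 FPKM, with a change of 0.14 in endothelium (difference 0.96 ± 0.21, SE). The transcription factor gene Foxp4, the adenylate kinase gene Ak6 and Smap1, of clathrin trafficking, had differences of 1.59, 1.35 and 1.18, mostly from endothelium. Egr3, an immediate early transcription factor that VEGF is known to induce, stood at 32.57, 39.83, 37.22 and 34.59 FPKM in endothelial Trap libraries, against 21.29 and 26.62 FPKM, and at 15.3 to 22.4 FPKM in CD146 Trap libraries, against 22.7 and 23.2 FPKM. Its groups were apart in both populations and in opposite directions (difference 0.90 ± 0.25, SE, limma adjusted p = 0.96). Adcy4, an adenylate cyclase of endothelium, had a difference of 0.96 ± 0.28 (SE).

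The lower 12 were led by Gins1, described above, and Gcsh. Gcsh, of the glycine cleavage system, stood at 10.73, 7.56, 8.96 and 9.61 FPKM in endothelial Trap libraries, against 19.57 and 28.53 FPKM, and at 8.33 to 10.3 FPKM in CD146 Trap libraries, against 6.26 and 8.32 FPKM (difference -1.58 ± 0.32, SE). Hecw2, a ubiquitin ligase (chromosome 1, 53806876 to 54195168, minus strand), stood at 12.35, 11.05, 12.77 and 8.15 FPKM in endothelial Trap libraries, against 21.46 and 25.06 FPKM, and at 5.79, 7.7, 6.02 and 4.86 FPKM in CD146 Trap libraries, against 4.15 and 2.71 FPKM (difference -1.70 ± 0.36, SE). Both genes were apart in opposite directions in the 2 populations, for Gcsh by 0.01 FPKM in CD146 mesenchyme, and their limma adjusted p was 0.57.

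Of the remaining lower genes, Cdc42ep3, an effector of Cdc42, stood at 7.62 to 19.9 FPKM in endothelial Trap libraries, against 35.9 and 48.7 FPKM, with a change of -0.03 in CD146 mesenchyme (difference -1.53 ± 0.41, SE, and -1.28 without endothelial Trap replicate 2). Its relative Cdc42ep5 had a difference of -2.81 ± 0.70 (SE). Sorbs3, vinexin, had CD146 groups that were apart, at 68.73, 59.12, 71.36 and 80.4 FPKM under Trap, against 40.39 and 50.17 FPKM. Its difference of -1.11 ± 0.30 (SE) came from both populations. The ciliary transition zone gene Tctn3, the RNA-binding protein gene Hnrnph2 and the zinc finger gene Zkscan14 had differences of -2.37, -1.11 and -2.02, and that of Tctn3 was -2.04 without endothelial Trap replicate 2. Zkscan14 reached 1 FPKM in endothelial Trap replicate 3 only among the Trap libraries, so it too entered in endothelium only with the help of the controls.

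**Figure D5:**
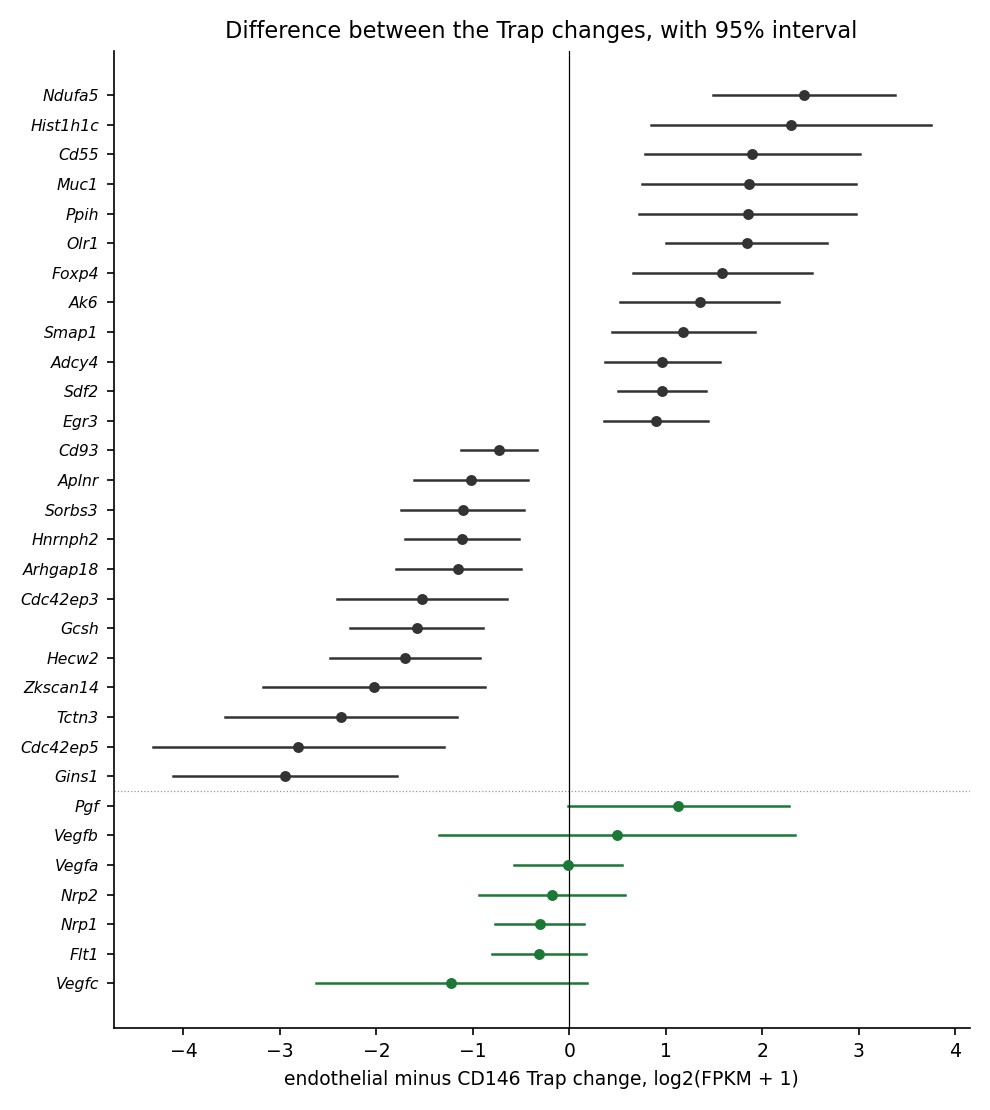
Endothelial minus CD146 Trap change (log2(FPKM + 1), points) with 95% interval (bars) for the 12 genes of lowest p in each direction with at least 5 FPKM in a group mean (above the dotted line) and the 7 VEGF ligands and receptors tested below it. All 24 intervals exclude 0, as the choice by p requires, none passed after adjustment, and the 7 VEGF intervals all include 0.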

How the data were processed

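RNA from sorted neonatal thymic stroma was converted to cDNA and amplified with NuGEN's Ovation kit, then sequenced as paired ends, per the labels' protocols. Values were deposited by the authors as FPKM per gene, 1 column per library. The submitters' processing notes name bcl2fastq 2.17, STAR, DESeq2 and the builds GRCm38 and mm10. What each tool did, which annotation was used and whether counting was stranded: not given in the sources used here. Read depth is unknown from FPKM, so no counting intervals are given.

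The FPKM were analysed as log2(FPKM + 1), which understates changes of low genes. Genes with at least 1 FPKM in at least 2 libraries of each population were kept. These libraries could share a treatment, so a gene low in one group could enter through the group where it was high. The difference of such a gene is not independent of the filter. limma 3.58.1 in R 4.3.3 (empirical Bayes with a variance trend) was fitted to 4 groups of 12 libraries, and p-values were adjusted over 11194 genes by Benjamini-Hochberg. The fit was tested on simulated data. Replicate numbers did not enter the main model.

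Members and gene lists were chosen with earlier results of these data known. The text names, per direction, the 12 genes of lowest p with at least 5 FPKM in a group mean, up to 2 genes of lowest p per list, the VEGF list and Cdh5, Rgs5, Pecam1 and Mcam. Others are said to be chosen after their values were seen. Promoter windows came from RefSeq (GRCm38.p6), matched by symbol, with exons from GENCODE. Gene coordinates are those of GENCODE on GRCm38.

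Alternatives covered the libraries in the fit, weights, the replicate block, pseudocounts, filters, scaling, the variance model and leaving out each library. Figures were drawn with matplotlib 3.10.9.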

Additional observations from a re-analysis of the deposited data

Results flagged for a closer look

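Among the 4 Trap libraries of a population, 1 library lay far from the other 3 (by Dixon's test at the 95% level) in 11 of 170 groups examined over 85 genes. Chance flags about 1 in 20 such groups.

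Endothelial Trap replicate 2 was the library apart for 5 genes. Igfbp3 stood at 22.66 FPKM there, against 51.74 to 60.32 FPKM in the other Trap libraries, and Sele at 131.81 FPKM, against 173.98 to 178.15 FPKM. Ppih stood at 4.24 FPKM, against 2.51 to 2.69 FPKM, and Tctn3 at 0.51 FPKM, against 2.49 to 2.89 FPKM. Flt4, a lymphatic endothelial receptor, stood at 29.18 FPKM, against 14.83 to 16.41 FPKM. The same library had the highest epithelial markers, with Foxn1 at 11.04 FPKM and Prss16 at 11.55 FPKM, and their part in these values was not tested.

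The other endothelial libraries apart were Trap replicate 1 for Cdc42ep5 (2.09 FPKM, against 0.08 to 0.19 FPKM), Trap replicate 3 for Zkscan14 (3 FPKM, against 0.88 to 0.97 FPKM) and Trap replicate 4 for the histone gene Hist1h2bj (0.59 FPKM, the others being listed at 0). In CD146 mesenchyme, Trap replicate 1 was low for the interferon regulator Irf7 (2.4 FPKM, against 3.82 to 4.11 FPKM). CD146 Trap replicate 2 was high for the transcription factor gene Foxo1 (18.03 FPKM, against 14.14 to 14.52 FPKM) and held 0.21 FPKM of the globin gene Hbb-bs, which was listed at 0 in the others.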

How the results depend on the processing

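The difference between the populations was refitted under 13 alternatives and with each of the 12 libraries left out. It gave 0 higher and 0 lower genes in each, except that without a filter on low values (17850 genes) 1 was higher (Saa4) and 2 were lower (Hist1h1t and a gene named only by its clone), none of which reached 1 FPKM in both populations. Genes at an unadjusted p under 0.05 numbered 392 to 645 (3.5% to 5.76% of genes tested) with a Trap library left out. Under the alternatives that kept all libraries they numbered 256 to 957. As 5712 to 17850 genes were tested there, the shares ran from 3.98% to 8.55%. The endothelial count (1 gene) was 242 with all 30 libraries in the fit, 21 without the filter, 12 at a pseudocount of 5, 4 at 0.1, 3 without a variance trend, 2 after rescaling to TPM, 2 with upper quartile scaling, and 0 with a weight per population or with the 6 endothelial libraries alone. It ranged from 0 (without endothelial control replicate 1) to 4 (without endothelial control replicate 2) with a library left out. The CD146 count (0 genes) was 1 with all 30 libraries and 2 without the filter. The causes were not tested. The adjusted p of Kif11 in endothelium (limma) ranged from 0.00593 to 0.294 with a library left out and from 1.85e-05 to 0.143 otherwise. The median difference of DNA replication genes ranged from -0.54 to -0.17 with a library left out and from -0.57 to -0.11 otherwise. That of tip cell genes ranged from -0.61 to -0.37 and from -0.59 to -0.41. Of the 82 named genes, 79 to 82 kept the sign of their difference with a library left out, and none was called under any alternative.

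Replicate numbers are shared between groups in the labels, but same-numbered libraries of the 2 populations correlated at only 0.0518 to 0.0731 in their deviations, so the numbers were not taken as pairs. Every library correlated best with its own number within its treatment, a hint from the data only. The 2 controls of a population deviate by equal and opposite amounts, and the Trap deviations sum to 0, so these are not separate agreements. A replicate block of treatment and number gave 0 higher and 0 lower genes, with 590 at an unadjusted p under 0.05. A replicate block by number alone gave 0 and 0, with 515, and 0 genes in endothelium.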

Other observations

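CD146 control replicate 1 and CD146 Trap replicate 2 shared high levels of extracellular matrix genes, which were chosen after their values were seen. Fbln5, fibulin 5, which helps to assemble elastic fibres, stood at 11.33, 83.54, 6.17 and 0.54 FPKM in CD146 Trap libraries, against 79.82 and 1.23 FPKM in CD146 controls. Lox, the lysyl oxidase that crosslinks collagen and elastin, stood at 36.81, 158.71, 23.06 and 15.53 FPKM in CD146 Trap libraries, against 146.53 and 12.19 FPKM. Itga8, an integrin chain, stood at 53.17, 123.05, 45.84 and 37.05 FPKM, against 105.98 and 26.71 FPKM. Col1a1, a collagen I chain, stood at 71.0, 165.6, 53.25 and 48.0 FPKM, against 133.92 and 30.53 FPKM. The 2 libraries stood above the other 4 CD146 libraries for each of these genes, across treatments. They also had the highest and second highest mean of the mitosis genes, 3.31 in control replicate 1 and 2.98 in Trap replicate 2 on the log2 scale. Whether this spread had a part in the CD146 cell cycle changes was not tested.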
